A study of Mus musculus with 1115 samples.

Results

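Among 1115 single cells of the embryonic mouse cerebral cortex, the 17.1% that the authors' annotation called intermediate progenitor cells (IPCs) were compared by whether a Hes5 reporter was on. Of these IPCs 63.9% were reporter positive (5, 11, 42 and 64 cells on 4 sort days) and 69 cells, 36.1%, carried the red marker alone (7, 5, 25 and 32 cells). The class was taken from the authors' cell table and the reporter state from the sample labels. No expression value of these genes was used here to choose cells, but the authors' class may itself rest on expression in the same cells. All cells came from the wild-type cortex of C57BL/6 embryos at embryonic day 13.5 that had been electroporated in utero with one plasmid carrying mRFP under the ubiquitous CAG promoter and GFP under a Hes5 promoter. Fluorescence-activated sorting then separated mRFP+GFP+ cells, here the reporter-positive group, from mRFP+GFP- cells, here the mRFP-only group, so both groups carried the plasmid and differed by the green signal at the time of the sort. The plasmid marks only cells that took it up and their progeny, GFP protein can outlast the transcription that made it, and the labels name no animal or litter.

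Intermediate progenitors are the transit-amplifying cells of the cortex: radial glia produce them, they express the T-box factor Eomes, and most divide once or a few times in the subventricular zone to give neurons. Notch receptors on radial glia, when bound by Delta-family ligands on neighbouring cells, release an intracellular domain that joins the DNA-binding protein Rbpj and turns on the repressors Hes1 and Hes5, which hold down proneural genes such as Neurog2. Cells that become intermediate progenitors lose Hes1 and Hes5, raise Neurog2 and the ligand Dll1, and later switch on Neurod1, Neurod6 and neuronal genes. A green intermediate progenitor therefore carries a reporter of a pathway that its class is known for switching off.

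The reporter rests on a Hes5 promoter carried by the plasmid, and the sequence of the endogenous promoter is shown for reference. Whether the plasmid holds these bases is not known. The Hes5 gene lies at chr4:154960923-154962371 on the plus strand of GRCm38 (GENCODE M21). The 250 bases before its start site, chr4:154960673-154960922 in the RefSeq promoter table for GRCm38.p6, are printed 5′ to 3′, with the letters TGGGAA, the core that Rbpj prefers, in capitals on either strand.
Hes5 promoter: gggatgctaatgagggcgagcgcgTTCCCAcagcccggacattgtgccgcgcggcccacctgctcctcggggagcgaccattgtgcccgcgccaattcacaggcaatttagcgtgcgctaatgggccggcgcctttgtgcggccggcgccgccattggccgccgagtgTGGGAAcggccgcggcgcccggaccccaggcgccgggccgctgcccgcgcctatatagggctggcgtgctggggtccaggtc
The 2 matches do not overlap, 1 on each strand. Of 32851 promoters in that table, 21.6% held the letters at least once in the same window and 2.77% held them 2 or more times. The fragment carried by the plasmid is not described in the labels.

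The cells had been sorted on 4 days, numbered 1 to 4 by date, and counts were summed per day and group, because cells of one day are not independent and the day is the only replicate the cell table offers. The median depth was 342824 counts per cell in the reporter-positive group and 318609 in the mRFP-only group, ranging from 814 to 1982807, and 1 cell gave up to 30.8% of a day's sum. Cells of days 1 and 2 were deeper, with group medians of 823974 to 1500660 counts against 209828 to 331314 on days 3 and 4. On days 1 and 2 the groups shared a plate, apart from 1 cell, whereas on days 3 and 4 every plate held 1 group, so plate and group cannot be told apart there. Levels are CPM, each gene's share of all counts of a sum scaled to 1e6, and are not divided by gene length, so a level is compared between groups and never between genes. Values in a sum rise with the number of cells that hold a transcript and with the amount per cell, and these cannot be told apart from the sum alone. With the days as units, p-values set the within-day difference of the groups against its variation from day to day, which may be technical.

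Eomes, the known marker of the class, was low in 1 of the 8 sums. The authors' class may itself rest on Eomes in these cells, so its level is a description and not an independent check. Eomes, at chr9:118478212-118486132 on the plus strand, averaged 224.7 ± 51.1 CPM in reporter-positive IPCs and 186.2 ± 138.4 CPM in mRFP-only IPCs (SD, n = 4 days), against means of 11 and 27.6 CPM in the radial glial cells (RGCs) and 106.1 and 75.7 CPM in the excitatory neurons (ENs) of the same groups. It was detected in 77.9% of reporter-positive and 66.7% of mRFP-only IPCs, in 6.04% and 14.3% of RGCs and in 57.8% and 31.7% of ENs. The mRFP-only IPCs of day 2 stood at 1.28 CPM, below the means of RGCs, and none of these 5 cells held an Eomes count after thinning. Without day 2, log2 ratios of reporter positive over mRFP only, described further on with all days, were 1.07 for Btg2, -1.25 for Neurod1 and -0.72 for Neurod6, and list medians were 0.01 for proneural genes, -0.14 for intermediate progenitor genes and -0.69 for neuron genes. Markers of other cells were near 0 in IPCs on every day: the summed level ranged from 0 to 4.81 CPM for 7 inhibitory lineage genes, from 0 to 1.71 CPM for 5 endothelial genes, from 0 to 5.77 CPM for the 1 microglial gene in the table and from 0 to 22.1 CPM for 3 Cajal-Retzius genes.

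Green messenger was present in the reporter-positive IPCs of every day, which checks the labels. eGFP stood at 84.8, 207.4, 28.8 and 18.8 CPM in reporter-positive IPCs on days 1 to 4, and at 3.89, 6.74, 5.65 and 0.735 CPM in mRFP-only IPCs. The groups did not overlap on this level. A count of eGFP was found in 48 reporter-positive IPCs (39.3%, exact Clopper-Pearson 95% interval 30.6 to 48.6) and in 9 of 69 mRFP-only IPCs (13%, 6.14 to 23.3). In RGCs the shares were 67.5% and 5.71%, and in ENs 28.9% and 14.8%, so green IPCs stood between green RGCs and green ENs. After every cell had been thinned to 20000 counts the shares in IPCs were 24.2% and 7.46%, higher in the reporter-positive group on 3 of 4 days and lower on day 2, and the mean difference was 13.9 ± 32.2 percentage points (SD, n = 4 days; exact two-sided sign-flip p = 0.5). Intervals cover counting error only, since reads without molecular identifiers are not independent molecules.

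The red marker, which both groups had to carry, also differed. mRFP stood at 13053, 8964, 1564 and 1039 CPM in reporter-positive IPCs and at 584.1, 884, 866 and 238.4 CPM in mRFP-only IPCs, again without overlap. The fitted log2 ratio of reporter positive over mRFP only was 2.71 ± 0.60 (SE), with an unadjusted p of 0.0031 and an adjusted p of 1 by edgeR's quasi-likelihood test. In thinned counts the ratio was 2.68 with an adjusted p of 7.2e-05 by the same test. The share of IPCs with an mRFP count was 82% in the reporter-positive group and 78.3% in the mRFP-only group, or 70.8% and 65.7% after thinning, so most of each group held red messenger.

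Hes5 messenger itself was low in both groups. It stood at 0, 4.03, 5.03 and 5.0 CPM in reporter-positive IPCs and at 0, 0, 12.6 and 2.83 CPM in mRFP-only IPCs, and it fell under the 5 CPM minimum for a test. A count was found in 11 reporter-positive IPCs (9.02%, interval 4.59 to 15.6) and in 3 of 69 mRFP-only IPCs (4.35%, interval 0.906 to 12.2). Thinned to equal depth, the shares were 4.17% (interval 1.37 to 9.46) and 4.48% (0.933 to 12.5). For comparison, 4.44% and 3.70% of ENs, the class that follows IPCs in the lineage, held a Hes5 count, or 2.22% and 3.04% after thinning. The median depths of ENs were 251362 and 240175 counts. Without thinning, 46.2% and 27.1% of RGCs held a Hes5 count. The thinned shares of ENs lay within the intervals of the IPC shares. Those intervals cover counting error only, and a difference of IPCs from neurons in Hes5 was not tested by sort day. Of the 48 reporter-positive IPCs with eGFP messenger, 7 also held a Hes5 count and 41 did not, while 70 reporter-positive IPCs held neither.

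No gene differed between reporter-positive and mRFP-only IPCs across the 4 days when 10014 genes were tested with edgeR's quasi-likelihood method and p-values were adjusted by Benjamini-Hochberg. The share called was 0% in each direction, every adjusted p was 1, and 75 genes (0.749%) had an unadjusted p under 0.05. limma-voom with quality weights called 2 genes, Sox11 (log2 ratio -0.49, adjusted p = 1.2e-05) and Gm42418 (-0.27, adjusted p = 0.0068), and DESeq2 called 30, of which 21 were higher. DESeq2's calls included eGFP, mRFP, Katnal1 and Hcfc2 but none of the Notch, proneural, cell cycle or neuronal genes described here. On simulated data made from these sums, DESeq2 called many unchanged genes and edgeR few, and edgeR recovered few genes changed by known amounts. The simulation used edgeR's own dispersions and had no sort-day effect, so it does not rank the tools on the real sums. With 4 days as units, the absence of calls does not show that the groups were alike. The values that follow are therefore given by day, beside the share of all genes that behaved the same way: 5.56% of genes were higher on every day and 3.83% lower, and in 1.06% and 0.649% of all genes the 2 groups did not overlap with the reporter-positive group above or below.

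**Figure D1:**
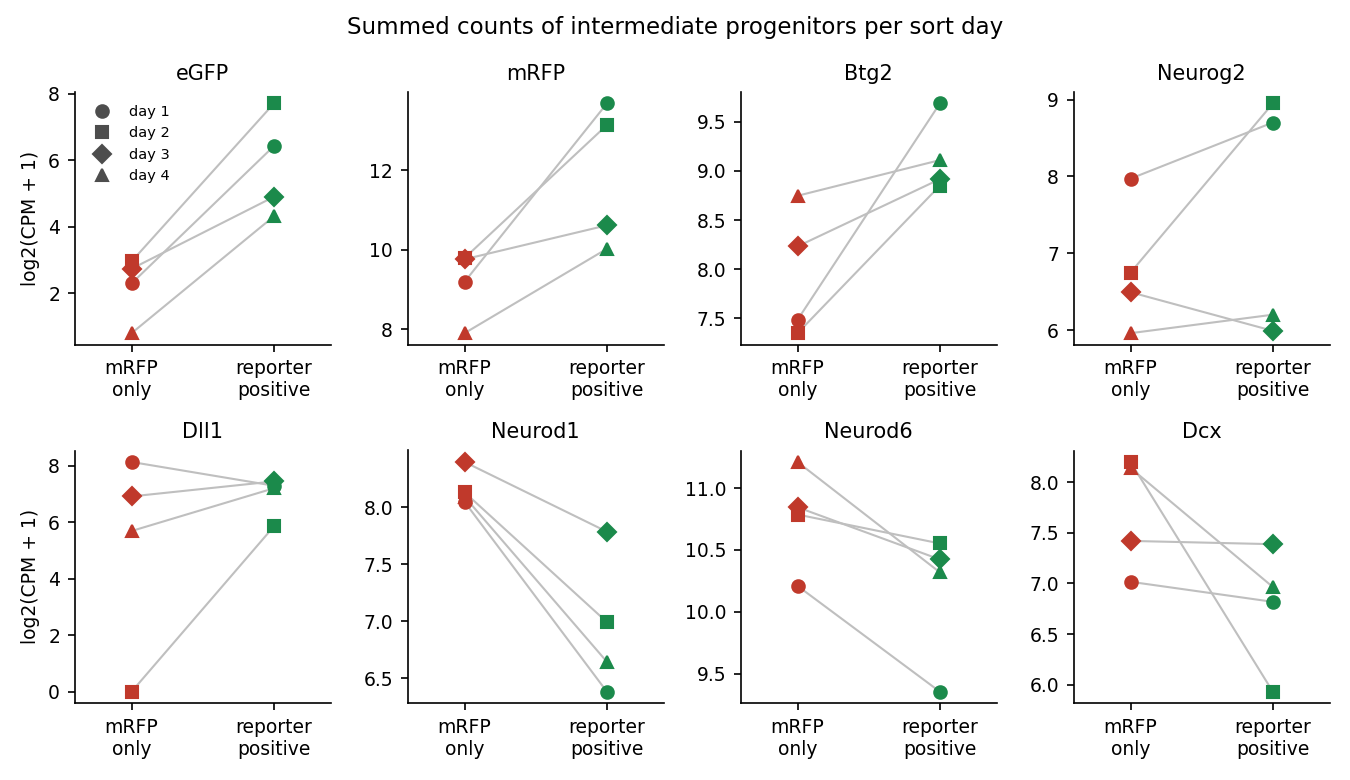
Level of 8 genes in the summed counts of intermediate progenitors, as log2(CPM + 1) on a scale of its own for each gene. Each symbol is 1 of the 4 sort days, red for mRFP only and green for reporter positive, and grey lines join the groups of 1 day: eGFP, mRFP and Btg2 were higher in the green group on 4 of 4 days, Neurod1, Neurod6 and Dcx lower on 4 of 4, and Neurog2 and Dll1 higher on 3.

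Notch receptors, their nuclear partners and their targets showed no shared direction. Of 16 genes on that list 15 were in the table and 11 were tested, with 0 called, 3 of positive and 8 of negative log2 ratio, and a median of -0.38 against 0.11 over all genes tested. Notch1, a receptor, stood at 260.6, 173.7, 50.9 and 31.9 CPM in reporter-positive IPCs and at 315.8, 145.9, 29.2 and 15.1 CPM in mRFP-only IPCs, a log2 ratio of 0.46 ± 0.48. Day moved this gene more than reporter state did, and the groups overlapped. Rbpj, the DNA-binding partner of the cleaved receptor, was at 125.4 ± 29 CPM in reporter-positive and 171.7 ± 122.5 CPM in mRFP-only IPCs (SD, n = 4 days), with a log2 ratio of -0.17 ± 0.62.

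The canonical targets were low in IPCs of both groups. Hes1 was counted in 9.02% of reporter-positive and 5.80% of mRFP-only IPCs, against 63.6% and 30% of RGCs and 0% and 0.823% of ENs; the 0 of 45 green ENs allows up to 7.87%. Its log2 ratio of 0.85 had a standard error of 5.50 and changed sign under other settings. Hey1, a related repressor, was lower on every day, at 29.6, 2.06, 26.6 and 39.5 CPM in reporter-positive IPCs against 62.5, 106.4, 34.5 and 50.6 CPM, and its log2 ratio was -1.50 ± 1.37. Hey1 was the 1 member of the list with one sign on all days, and its groups overlapped. The list's end members Maml1, a coactivator of the receptor complex, and Nepro had log2 ratios of -3.88 ± 2.59 and -3.27 ± 2.93; Maml1 was at or under 0.56 CPM in every sum except mRFP-only IPCs of day 4, at 17.5 CPM. Notch2 was at 8.48, 0, 17.9 and 21.4 CPM in reporter-positive IPCs and at 3.89, 99.4, 9.96 and 21.7 CPM in mRFP-only IPCs, with a log2 ratio of -0.38 ± 2.46.

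Among the ligands Dll1 averaged above its mean in radial glia in both groups, though mRFP-only IPCs of day 2 stood at 0 CPM. Dll1 at chr17:15367354-15376872 on the minus strand, the Delta ligand by which differentiating cells activate Notch in their neighbours, stood at 156.6, 57, 174.1 and 147.02 CPM in reporter-positive IPCs and at 281.3, 0, 120 and 50.8 CPM in mRFP-only IPCs. It was higher in the reporter-positive group on 3 of 4 days, the groups overlapped, and the log2 ratio was 1.49 ± 1.61. It ranged from 0.41 without day 2 to 2.55 without day 1, and was 0.24 with no replicate block. By cells, Dll1 was counted in 49.2% of reporter-positive and 27.5% of mRFP-only IPCs, and in 42.5% and 22.4% after thinning. The thinned share was higher on 3 of 4 days, by 14.8 ± 25.9 percentage points on average (SD, n = 4 days; exact two-sided sign-flip p = 0.375, adjusted 0.469 over 10 genes). In RGCs of the 2 groups Dll1 averaged 26.1 and 44.1 CPM.

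Other ligands and modulators did not follow Dll1. Dll3, a Delta protein that acts inside the cell against Notch activation, averaged 32 ± 8.70 CPM in reporter-positive and 82.9 ± 78.3 CPM in mRFP-only IPCs (SD, n = 4 days), lower on 3 of 4 days, with a log2 ratio of -0.38 ± 1.95. Mfng, a glycosyltransferase that modifies Notch receptors and ligands, stood at 486.99, 548.2, 398.5 and 431.5 CPM in reporter-positive IPCs against 371.2, 130.8, 425.4 and 331.3 CPM, higher on 3 of 4 days, with a log2 ratio of 0.67 ± 0.40 that was 0.23 without day 2, where 5 mRFP-only cells gave the lowest value, and 0.14 on days with at least 10 cells a group. Dner, a Delta-like neuronal protein, and the ubiquitin ligase Mib1, which primes Delta ligands for signalling, had log2 ratios of -2.07 ± 2.92 and -1.39 ± 1.85. Of 17 ligand and modulator genes 11 were tested, 0 were called, 5 had a positive and 6 a negative ratio, and the median was -0.38.

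Proneural factors and their targets mostly had positive log2 ratios, with none called by edgeR. All 18 genes of that list were tested: 12 had a positive and 6 a negative log2 ratio, where 5490 of all 10014 genes had a positive one, and the median was 0.36 against 0.11 over all genes, or 0.01 without day 2. Their summed level was 8029, 6622, 12385 and 10828 CPM in reporter-positive IPCs and 6113, 4583, 15803 and 12827 CPM in mRFP-only IPCs, higher on days 1 and 2 and lower on days 3 and 4, so the list as a sum had no shared direction. Among the 6 negative members were Neurod1 (-1.22), Sox11 (-0.26) and Insm1 (-0.26). Sox11 was called lower by limma-voom with quality weights, in IPCs (-0.49, adjusted p = 1.2e-05) and in cluster 4 (-0.53, adjusted p = 0.0042). Btg2 at chr1:134075170-134079120 on the minus strand, an antiproliferative gene that marks progenitors about to make neurons, was the clearest of the positive members. It stood at 822, 460.2, 481.9 and 551.2 CPM in reporter-positive IPCs and at 178.3, 162.1, 299.7 and 428.5 CPM in mRFP-only IPCs, so the groups did not overlap. The log2 ratio was 1.19 ± 0.36 (SE; unadjusted edgeR p = 0.015, adjusted p = 1, and adjusted p = 0.23 by DESeq2), and it stayed positive in all 16 alternative settings, from 0.52 on the 2 days with at least 10 cells a group to 1.47 without day 4. Btg2 was counted in 89.3% of reporter-positive and 69.6% of mRFP-only IPCs, and after thinning in 84.2% and 68.7%; by day the thinned share was 100, 72.7, 87.8 and 82.5% against 71.4, 40, 66.7 and 74.2%. The thinned difference of 22.7 ± 10.7 percentage points had one sign on 4 of 4 days and an exact sign-flip p of 0.125, the smallest that 4 days allow, or 0.357 adjusted over 10 genes.

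Neurog2, the factor that drives the radial glia to intermediate progenitor step, lies at chr3:127633135-127635631 on the plus strand. It stood at 415.4, 493.3, 62.6 and 72.6 CPM in reporter-positive IPCs and at 249.98, 106.6, 89.2 and 61.3 CPM in mRFP-only IPCs, higher on 3 of 4 days, with a log2 ratio of 0.65 ± 0.53. The ratio was 0.16 without day 2 and -0.13 on the days with at least 10 cells a group, where its direction turned. Levels were several-fold higher on days 1 and 2 than on days 3 and 4 in the reporter-positive group, and the groups overlapped. By cells, 50.8% of reporter-positive and 38.8% of mRFP-only IPCs held a Neurog2 count after thinning, higher on 4 of 4 days by 21.2 ± 16.1 percentage points (SD, n = 4 days; exact sign-flip p = 0.125, adjusted 0.357). Gadd45g, a member of the proneural and intermediate progenitor lists, lies at chr13:51846678-51848468. It stood at 1242, 616.8, 531.2 and 865 CPM against 441.2, 540.6, 533.1 and 443.3 CPM, with overlapping groups. Its log2 ratio was 0.66 ± 0.30, or 0.38 without day 1. Hes6, an inhibitor of Hes1 that proneural factors switch on, was at 878 ± 134.4 CPM in reporter-positive and 749 ± 411.5 CPM in mRFP-only IPCs (SD, n = 4 days), and its 161.8 CPM on day 2 in the mRFP-only group set that spread.

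Nhlh1, another factor of neuronal differentiation, was at 122.7 CPM in reporter-positive IPCs on day 1 and at or under 5.80 CPM in the other 7 sums, with a log2 ratio of 1.99 ± 2.45, and Plk3 had 2.76 ± 3.27. The intermediate progenitor list gave 16 tested genes of 17, with 0 called, 10 positive, 6 negative and a median of 0.65. Its members include Btg2, Eomes (log2 ratio 0.87 ± 1.32), Chd7 (1.18 ± 1.02), Insm1 (-0.26 ± 0.99), Tmem178 (-0.35 ± 0.35) and Cdh8 (-2.13 ± 1.78). The value of Eomes turned on day 2, where mRFP-only IPCs had 1.28 CPM in 5 cells against 222.6 CPM in reporter-positive IPCs; without that day the ratio was -0.14, and the list's median was -0.14 as well. Tmem178 was lower on every day and Ezr, a membrane linker, higher on every day at 0.69 ± 0.29.

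Of the later neuronal factors, Neurod1 and Neurod6 had negative log2 ratios, while Neurod2 (0.18), Neurod4 (0.66) and Bcl11b (0.68), named after their values were seen, had positive ones. Neurod1 at chr2:79452521-79456751 on the minus strand, a factor of the step from intermediate progenitor to neuron, stood at 82.4, 126.4, 219.7 and 99.1 CPM in reporter-positive IPCs and at 263.5, 279.3, 336.1 and 271.9 CPM in mRFP-only IPCs. The groups did not overlap. The log2 ratio was -1.22 ± 0.36 (unadjusted edgeR p = 0.012, adjusted p = 1, and adjusted p = 0.17 by DESeq2), negative in all 16 alternative settings, between -1.43 and -0.59. A Neurod1 count was found in 39.3% of reporter-positive and 59.4% of mRFP-only IPCs; after thinning the shares by day were 20, 27.3, 34.1 and 38.1% against 42.9, 40, 58.3 and 67.7%. This difference of -22.4 ± 7.06 percentage points had one sign on 4 of 4 days (exact sign-flip p = 0.125, adjusted 0.357). In RGCs Neurod1 averaged 0.53 and 14.5 CPM and in ENs 580.96 and 693.2 CPM, so both groups of IPCs lay between those classes.

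Neurod6 at chr6:55677822-55681263 on the minus strand, a factor of postmitotic cortical neurons, stood at 653.1, 1501, 1372 and 1276 CPM in reporter-positive IPCs and at 1183, 1766, 1840 and 2372 CPM in mRFP-only IPCs. It was lower on every day, though the day 1 value of the mRFP-only group fell within the range of the reporter-positive group. The log2 ratio was -0.60 ± 0.18 (unadjusted edgeR p = 0.013, adjusted p = 1), negative in all 16 alternative settings, between -0.75 and -0.43. Thinned shares of IPCs with a count were 70% and 83.6%, lower on 3 of 4 days by 10.5 points on average (exact sign-flip p = 0.25, adjusted 0.357).

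Across 35 cortical neuron genes 31 were tested and none was called, while 25 had a negative and 6 a positive log2 ratio, with a median of -0.60 against 0.11 over all genes. Their summed level was 4691, 6476, 6452 and 5035 CPM in reporter-positive IPCs and 7481, 8148, 7613 and 7833 CPM in mRFP-only IPCs. Every mRFP-only day lay above every reporter-positive day. Without Neurod1 and Neurod6 the sums were 3955, 4849, 4860 and 3660 CPM against 6034, 6103, 5437 and 5189 CPM, and the groups still did not overlap. In RGCs the full list averaged 975 and 2564 CPM, and in ENs 17314 and 20481 CPM, so the 2 groups of IPCs differed by a small part of the span between radial glia and neurons.

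Other neuronal genes had ratios of either sign, mostly with wide errors. Dcx, a microtubule-associated protein of migrating neurons, stood at 111.8, 60, 166.4 and 123.9 CPM in reporter-positive IPCs against 128.4, 292.8, 170.2 and 281.01 CPM, lower on 4 of 4 days at -0.91 ± 0.52, with day 3 nearly level. Its thinned share of cells was 35.8% against 47.8%, lower on 2 of 4 days and higher on days 1 and 3 (exact sign-flip p = 0.5, adjusted 0.5 over 10 genes), and in thinned counts the ratio was -0.24. Slc17a6, a vesicular glutamate transporter, was lower on 4 of 4 days at -1.01 ± 0.47, and Sema3c, a secreted guidance protein, at -4.32 ± 2.93 with at most 25.4 CPM in any sum. Together with Neurod1 and Neurod6 these were the 5 list members that were lower on every day, where 3.83% of all genes were. Higher on every day were 0 members, where 5.56% of all genes were. Tubb3, the neuronal tubulin, was at 484.3, 636.96, 634.8 and 611.6 CPM against 1772, 688.5, 606.9 and 713.5 CPM, with a log2 ratio of -0.52 ± 0.36, or -0.09 without day 1. At the list's ends Stmn2 had 1.39 ± 3.42, Cnr1 0.90 ± 3.47 and Rbfox1 -3.06 ± 3.35, all at low counts.

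**Figure D2:**
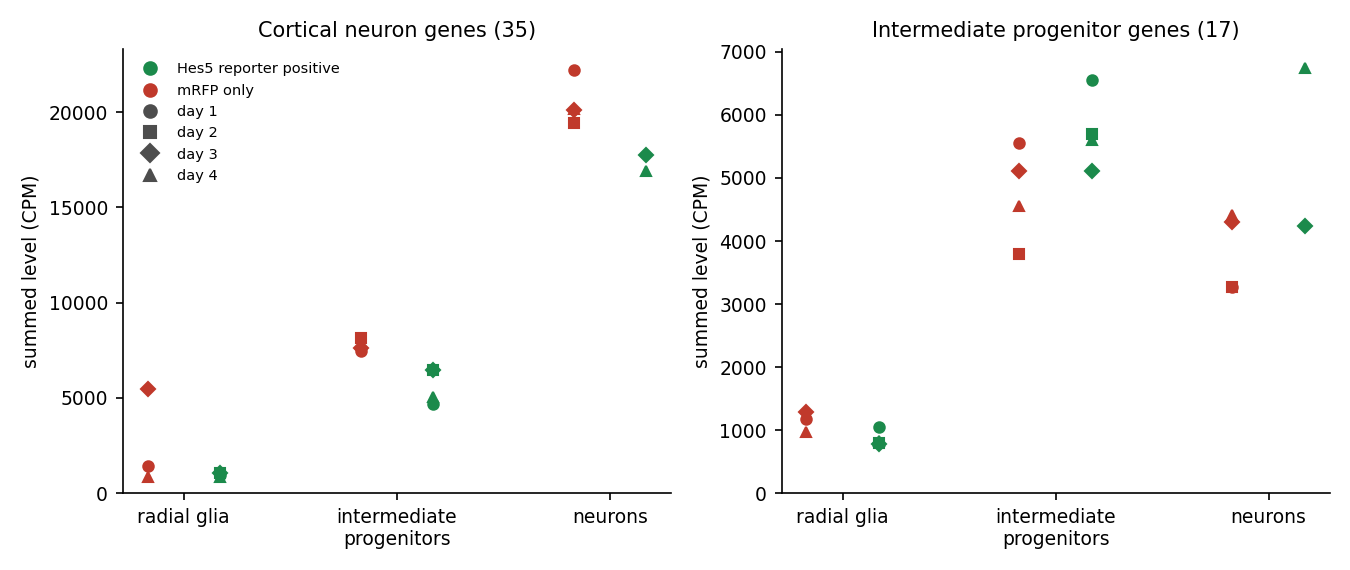
Summed level, in CPM, of 35 cortical neuron genes (left) and 17 intermediate progenitor genes (right) in radial glia, intermediate progenitors and neurons; each symbol is 1 sort day with at least 3 cells, red for mRFP only and green for reporter positive. Neuron genes summed to between 4691 and 6476 CPM in green and between 7481 and 8148 CPM in red intermediate progenitors, while the intermediate progenitor genes overlapped between groups.

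Over all IPCs, radial glia genes as a list did not separate the groups. In cluster 4 alone their sums did not overlap, as given further on. Of 22 genes 19 were tested, 0 were called, 11 had a positive and 8 a negative log2 ratio, and the median was 0.17. Nes, the progenitor intermediate filament, stood at 70.3, 68.8, 52.9 and 40.2 CPM in reporter-positive IPCs and at 0.371, 19.7, 23.7 and 19 CPM in mRFP-only IPCs, without overlap, at 2.29 ± 1.56; it was the 1 member with one sign on all days. Sox9, a radial glia transcription factor, was at 100.1 ± 59 CPM and 99.7 ± 58.1 CPM (SD, n = 4 days), a log2 ratio of 0.01 ± 0.69, and was counted in 54.9% and 56.5% of IPCs. Pax6, which is switched off as Eomes comes on, had -0.25 ± 1.07, and Sox2 had -1.28 ± 2.58 at no more than 50.6 CPM. Ednrb and Mfge8, at the list's ends, had 2.21 ± 4.0 and -1.56 ± 2.65.

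Cell cycle lists had medians near that of all genes, though more S phase genes were positive than negative, and edgeR called none of their genes. S phase genes numbered 44, all tested, with 0 called, 32 positive, 12 negative and a median of 0.21, where 5490 of all 10014 genes were positive. Their summed level was higher in the reporter-positive group on 3 of 4 days, with overlapping groups. Of these genes 6 were higher on every day, against 5.56% of all genes. Those higher on every day included Blm (2.10 ± 1.64), Wdr76 (1.87 ± 1.41), Casp8ap2 (1.0 ± 0.47), Fen1 (0.65 ± 0.24) and Prim1 (0.50 ± 0.30). They act in DNA replication or repair or in S phase progression. Lower on every day were 0 members, where 3.83% of all genes were. Wdr76 stood at 58.1, 54.5, 41.3 and 43.9 CPM in reporter-positive IPCs and at 1.48, 23.9, 15.6 and 29.8 CPM in mRFP-only IPCs, without overlap. Pcna, the replication clamp, was at 1019 ± 266.9 CPM and 1019 ± 409.2 CPM (SD, n = 4 days), a log2 ratio of 0.05 ± 0.33, and Cdc6 and Ung had -0.91 ± 0.56 and -1.23 ± 1.95.

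Genes of G2 and mitosis numbered 52, all tested, with 0 called, 21 positive, 31 negative and a median of -0.17. Within the authors' clusters 4 and 6, described further on, the medians were 0.17 and 0.40. Over all genes tested there they were 0.32 and 0.40. Top2a, the topoisomerase of dividing cells, stood at 362.7, 1701, 1364 and 1579 CPM in reporter-positive IPCs and at 1053, 1412, 1285 and 1574 CPM in mRFP-only IPCs, a log2 ratio of -0.28 ± 0.32 with overlapping groups, or 0.12 without day 1. Mki67, a marker of cycling cells, was at 50.7, 171.3, 333.3 and 302.9 CPM against 319.7, 256.8, 271.96 and 532.9 CPM, lower on 3 of 4 days at -0.91 ± 0.51, or -0.37 without day 1. Lbr was the 1 member with one sign on all days, at 0.44 ± 0.25. The list's ends were Kif2c (0.96 ± 0.50), Ckap5 (0.90 ± 0.60), Cenpe (-1.34 ± 1.75) and Kif23 (-1.46 ± 1.67), which work at the spindle, the kinetochore or the midbody.

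G1 cyclins, kinases and inhibitors numbered 21, with 0 called, 11 positive, 10 negative and a median of 0.01. Cdk6, a kinase of the G1 to S step, stood at 727.6, 512.7, 362.5 and 528.99 CPM in reporter-positive IPCs against 138.2, 425.1, 183.3 and 350.6 CPM, higher on 4 of 4 days at 1.04 ± 0.40 (unadjusted edgeR p = 0.036, adjusted p = 1). Its partner cyclins had no positive ratio of that size: Ccnd2 had 0.01 ± 0.23 and Ccnd1 -0.31 ± 0.50, and Ccnd3 was lower on every day at -1.33 ± 1.04. Cdkn1c, an inhibitor that promotes cell cycle exit, was at 172.3, 21.2, 6.28 and 7.39 CPM against 15, 10.6, 3.49 and 7.35 CPM, higher on 4 of 4 days at 1.27 ± 1.32 with most of the difference on day 1, and Cdkn1b had 0.43 ± 0.52. Rbl2, a retinoblastoma-family repressor of quiescent cells, was at 0, 1.72, 13.4 and 11.3 CPM against 49.9, 29.9, 81.4 and 16.9 CPM, without overlap, at -3.62 ± 2.22. E2f4 and E2f5 had 2.06 ± 2.17 and -3.62 ± 5.28.

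**Figure D3:**
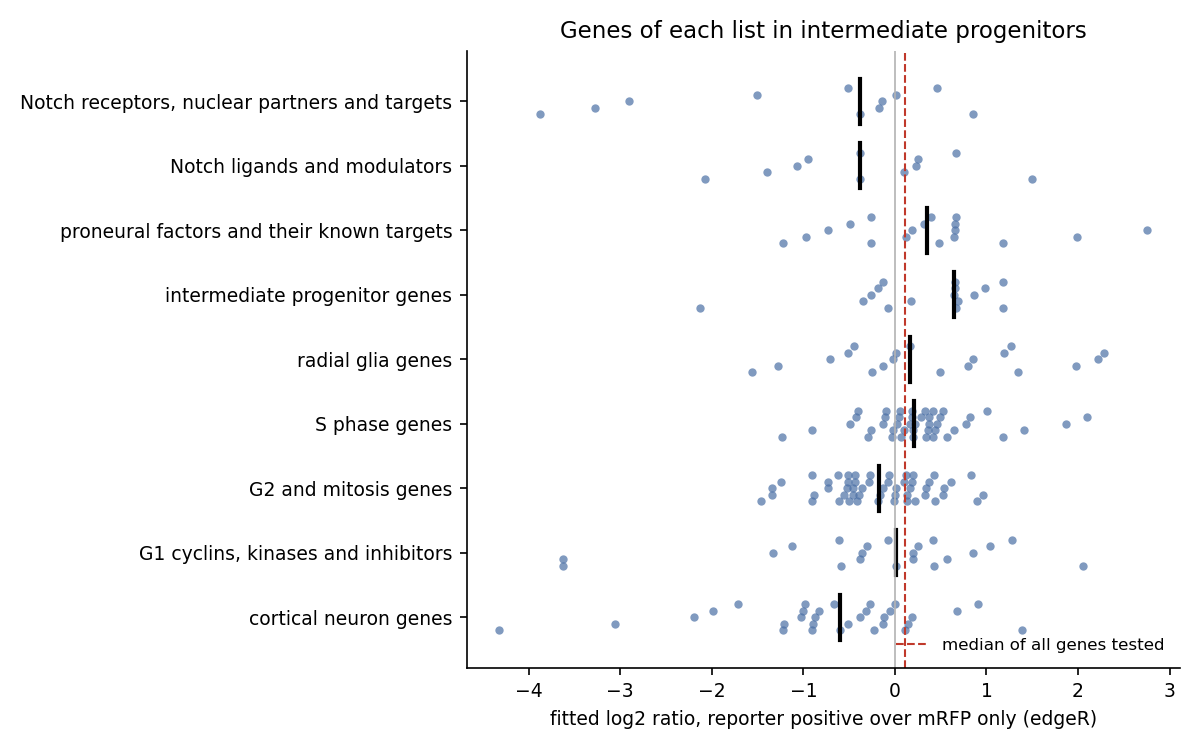
Fitted log2 ratio of reporter-positive over mRFP-only intermediate progenitors for every tested gene of 9 lists; each point is 1 gene, black bars are list medians and the dashed line is the median of all 10014 genes tested, at 0.11. The neuron list has the lowest median, -0.60, and the intermediate progenitor list the highest, 0.65.

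Phase calls by the authors did not separate the groups either. G1 was called in 27% of reporter-positive IPCs (exact 95% interval 19.4 to 35.8) and 26.1% of mRFP-only IPCs (16.3 to 38.1). By day the shares were 40, 9.09, 28.6 and 28.1% against 42.9, 20, 40 and 12.5%, a mean difference of -2.39 ± 12.6 percentage points (SD, n = 4 days; exact two-sided sign-flip p = 0.875). S phase was called in 16.4% and 10.1%, and G2 or M phase in 56.6% and 63.8%, with exact sign-flip p of 0.625 and 0.75. The share of IPCs in the authors' cluster 4 was 59% (49.7 to 67.8) in the reporter-positive group and 63.8% (51.3 to 75.01) in the mRFP-only group. By day it was 20, 63.6, 52.4 and 65.6% against 42.9, 60, 56 and 75%, a mean difference of -8.05 ± 11.2 percentage points with an exact sign-flip p of 0.375. Adjusted over the 11 shares of cluster, phase and class compared, every p was 1, and the smallest raw p that 4 days allow is 0.125.

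**Figure D4:**
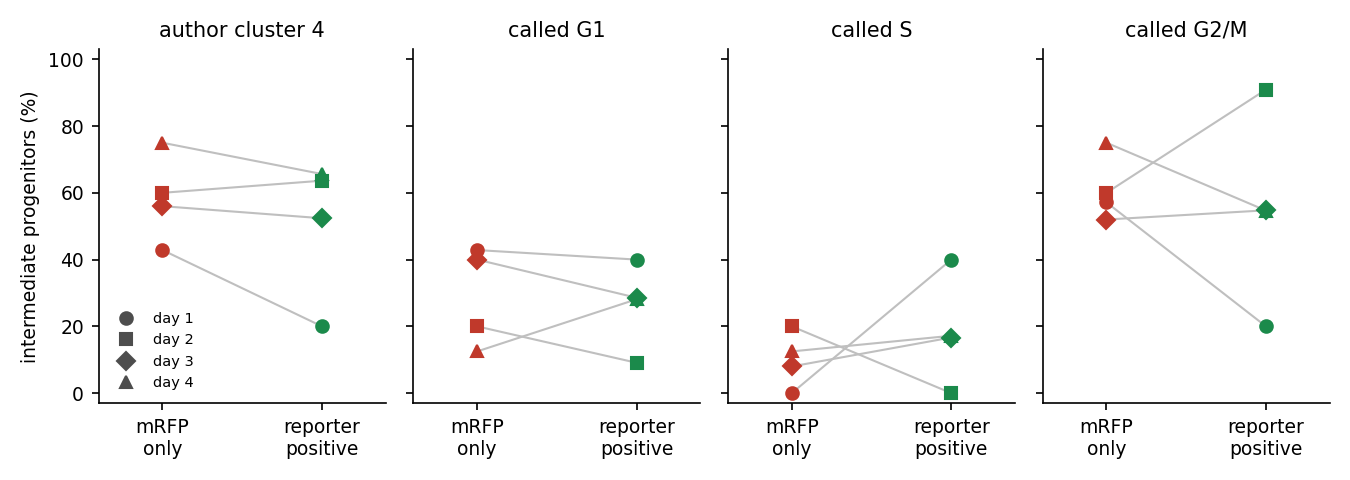
Percentage of intermediate progenitors in the authors' cluster 4 and in each called phase, by sort day; red is mRFP only, green is reporter positive, and grey lines join the groups of 1 day. The lines cross in each phase, and in cluster 4 the green share was lower on 3 of 4 days.

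Most IPCs fell into 2 of the authors' clusters that differed in cycle state, and the comparison was repeated in each. Cluster 4 held 60.7% of IPCs, of which 87.3% of reporter-positive and 92.7% of mRFP-only cells were called G2 or M on the days compared; cluster 6 held 67 IPCs, of which 70% and 76.2% were called G1; 8 IPCs lay in other clusters. Cluster 4 was fitted on days 2, 3 and 4 and cluster 6 on days 1, 3 and 4, since a day entered a fit where both groups had 3 or more cells. edgeR called 0 of 9840 genes in cluster 4 (0%; 56 genes, 0.569%, at an unadjusted p under 0.05) and 0 of 9699 in cluster 6 (0%; 80 genes, 0.825%), and DESeq2 called 0.671% and 2.07%. The difference of the reporter effect between the clusters, tested as an interaction on days 3 and 4, was called for 0 of 10689 genes (0%; 2.80% at an unadjusted p under 0.05), against 88 genes, 0.823%, by DESeq2.

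The values of Btg2, Neurod1 and Neurod6 in each cluster were as follows. Btg2 had a log2 ratio of 1.88 ± 0.60 in cluster 4, with pooled levels of 414.7 and 201.6 CPM in reporter-positive and mRFP-only cells, and 0.23 ± 0.52 in cluster 6, with 618.6 and 457.2 CPM. The interaction was 1.48 ± 0.52 (unadjusted edgeR p = 0.025, adjusted p = 1), so the clusters were not shown to differ. Neurod1 had -1.52 ± 0.59 in cluster 4, with 175.03 and 404.8 CPM, and -0.16 ± 3.60 in cluster 6, with 74.1 and 31.6 CPM; its interaction on days 3 and 4 was 0.89 ± 0.72 (adjusted edgeR p = 1). Neurod6 had -0.82 ± 0.19 in cluster 4, with 1509 and 2358 CPM, and -0.26 ± 0.50 in cluster 6, with 999 and 937 CPM; after thinning, the cluster 4 ratio was -1.0 with an adjusted p of 0.012 by edgeR. The pooled cluster 6 levels of both Neurod genes were higher in the reporter-positive group, opposite to the fitted sign.

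The neuron list summed to 5465, 7884 and 5387 CPM in reporter-positive cells of cluster 4 on days 2 to 4 and to 10049, 8590 and 8642 CPM in mRFP-only cells, with no overlap. In cluster 6 the sums on days 1, 3 and 4 were 5490, 3535 and 3953 CPM against 7364, 3945 and 5464 CPM, lower on each day but overlapping. List medians were -0.37 in cluster 4 and -0.13 in cluster 6, against medians of 0.32 and 0.40 over all genes there. Proneural genes had medians of 0.44 and 0.22, intermediate progenitor genes 0.67 and 0.08, and radial glia genes 0.67 and 0.50. Medians were -0.001 and 0.43 for S phase genes, 0.17 and 0.40 for G2 and mitosis genes, and 0.29 and 0.24 for the G1 list. Dll1 had 2.27 ± 2.24 in cluster 4 and -0.48 ± 2.52 in cluster 6, Mfng 1.02 ± 0.49 and -0.53 ± 0.47, and Hes6 1.51 ± 1.04 and -0.44 ± 0.29. The interactions of these 3 genes had adjusted p of 1 by edgeR. The neuron list was not alone in lacking overlap in cluster 4 on days 2 to 4. Radial glia genes summed to 1838, 1657 and 1930 CPM in reporter-positive cells against 1303, 1357 and 1410 CPM. Intermediate progenitor genes summed to 4592, 4654 and 5221 CPM against 2879, 4201 and 4154 CPM. In cluster 6 both of these lists overlapped between groups. How often sums of other genes lack overlap over 3 days was not tested.

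**Figure D5:**
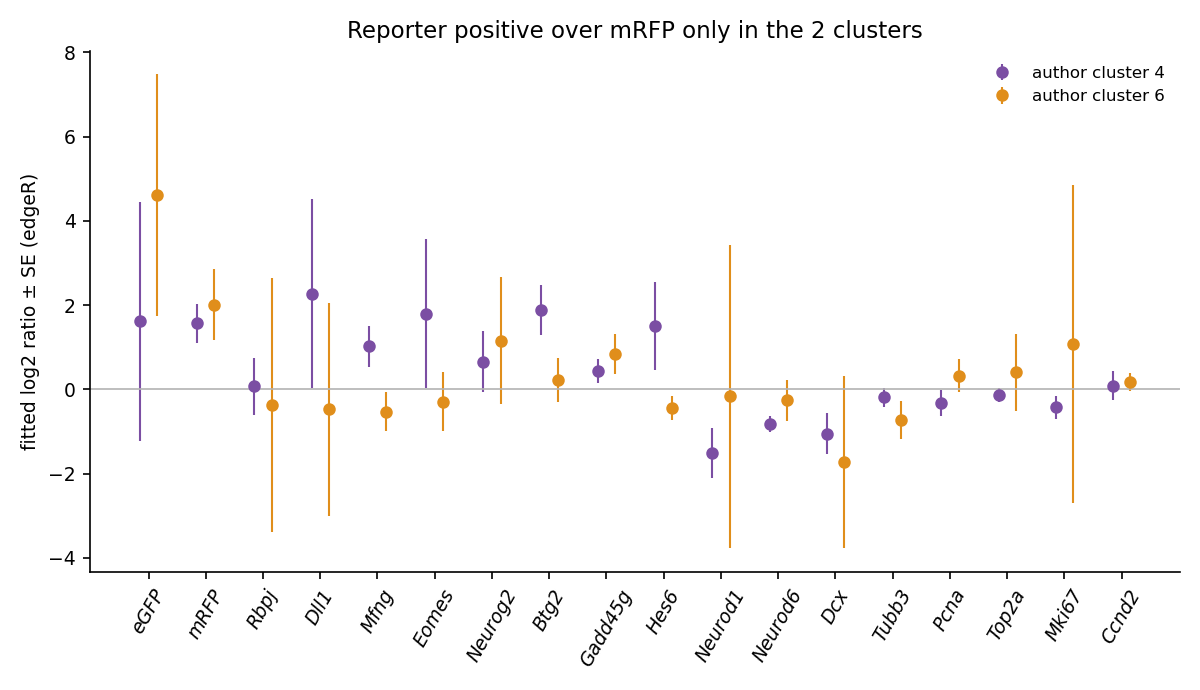
Fitted log2 ratio of reporter positive over mRFP only with its standard error (edgeR, 3 days a cluster) for 18 genes in the authors' cluster 4 (purple) and cluster 6 (orange). Btg2 is at 1.88 in cluster 4 and 0.23 in cluster 6, and most other intervals cover 0 or each other.

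The reporter effect in IPCs was set against the same contrast in RGCs and ENs. Over days 1, 3 and 4, edgeR called 0 of 11027 genes (0%; 1.31% at an unadjusted p under 0.05) for the difference between IPCs and RGCs, and over days 3 and 4 it called 0 of 10851 (0%; 3.84%) for the difference between IPCs and ENs; DESeq2 called 0.317% and 4.599%. Btg2 had the interaction of 2.06 ± 0.58 against RGCs (unadjusted p = 0.0065, adjusted p = 1) and 0.15 ± 0.49 against ENs. In RGCs it averaged 99.7 CPM in the reporter-positive and 163.5 CPM in the mRFP-only group. eGFP had an interaction of -4.54 ± 1.55 against RGCs, where green and red cells averaged 542.9 and 2.21 CPM. Neurod6 had 3.94 ± 2.08 against RGCs, where red cells averaged 566.1 CPM and green cells 7.53 CPM, and limma-voom called that difference (log2 5.45, adjusted p = 0.0085). Markers of neurons were thus carried by red RGCs of some days, with neuron list sums of 1410, 5441 and 843 CPM on days 1, 3 and 4 against 836 to 1049 CPM in green RGCs, and their part in this interaction was not tested.

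Outside the lists, genes were named by the size of their ratio among those with one sign on all days and in both clusters. Of 10014 tested genes, 5833 passed the minimums of level and detection. The 8 highest were Strn4 (6.46 ± 2.98), Cdon (5.97 ± 2.43), Katnal1 (5.90 ± 3.08), Unc45a (5.88 ± 3.27), Adar (5.62 ± 2.31), Ccny (5.55 ± 3.79), Upf3a (5.50 ± 3.23) and Hcfc2 (5.41 ± 2.54). They include Cdon, a Hedgehog coreceptor, and Adar, an RNA-editing enzyme. Each was at or under 0.371 CPM in the mRFP-only sums of days 1 and 2, which held 7 and 5 cells, and at 1.16 to 59.1 CPM on day 3. The 8 lowest were Helq (-5.37 ± 2.49), Nkiras1 (-5.33 ± 3.2), Kiz (-5.23 ± 3.84), Marc2 (-4.70 ± 3.53), Trim33 (-4.60 ± 2.31), Ppt1 (-3.94 ± 2.61), Rpgr (-3.73 ± 2.69) and Satb1 (-3.51 ± 1.80), among them Satb1, a chromatin organiser of maturing neurons. Each was at or under 1.98 CPM in the reporter-positive sums of days 1 and 2, with 5 and 11 cells. The size of these ratios thus came with absence from few cells, and none was called by edgeR; DESeq2 called Katnal1 (adjusted p = 0.045) and Hcfc2 (adjusted p = 0.049).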

How the data were processed

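Per the labels' protocols, libraries of single cells followed a modified Smart-seq2 method, which reads whole transcripts and has no molecular identifiers. The authors deposited estimated counts for 16839 genes, stored as whole numbers, and a table of natural log values, ln(1 + counts per 10000 of a cell); 2.71% of nonzero entries had been fractional (tolerance 0.01). Mitochondrial content was deposited as a fraction. HISAT2, Seurat 2 and mm10 appear in the submitters' processing notes; for annotation and counting tool, none is given in the sources used here. Of the symbols, 16290 are in GENCODE M21.

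Cell class, cluster, phase and sort day come from the authors' cell table. No cell was removed. Of 191 IPCs, 122 were reporter positive and 69 mRFP only; 116 lay in cluster 4 and 67 in cluster 6. Counts of IPCs were summed per sort day and group for days with at least 3 cells of each and entered edgeR 4.0.16 quasi-likelihood fits (R 4.3.3), sort day as a block, total counts as library size, genes with at least 5 pooled CPM in either group, Benjamini-Hochberg adjustment, called at 0.05. Standard errors are the log2 ratio divided by the root of F. Differences between clusters or classes are interaction terms. Shares were compared with exact two-sided sign-flip tests over days, and thinned cells hold 20000 counts, which left out 2 cells a group. Alternatives were TMM factors, DESeq2 1.42.0, limma 3.58.1 (voom with quality weights, and the authors' log values), no filter, minimums of 10 and 5 cells, no day block, thinning, single plates left out, clusters 4 and 6 only and each day left out. Scripts were tested on simulated data.

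The groups of a day share that day's sort; correlations of their deviations over genes were 0.0737, 0.0690, 0.135 and 0.162 on days 1 to 4. The cells, members and lists were chosen with earlier results of these data known. Genes named are 30 that are always given, the 8 highest and 8 lowest ratios with at least 20 pooled CPM, a count in at least 20% of cells of either group and one sign on every day and in both clusters (without mitochondrial, ribosomal, numbered Gm and Rik genes; 547 genes qualified, 323 higher and 224 lower), and the 2 highest and 2 lowest of each list; Hey1, Ezr, Slc17a6, Casp8ap2, Fen1, Prim1, Lbr, Cdk6 and Ccnd3 were named after their values were seen. Some items are not reported here.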

Additional observations from a re-analysis of the deposited data

Results flagged for a closer look

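For each named gene the 4 days of a group were searched for a day that stood far from the rest by Dixon's ratio. Over the 73 named genes and both groups, 20 were flagged, where chance flags about 1 in 20. On day 1, flagged values were Tubb3 at 484.3 CPM, Cdkn1c at 172.3 CPM and Nhlh1 at 122.7 CPM in reporter-positive IPCs, and Insm1 at 67.5 CPM, Tubb3 at 1772 CPM, Rpgr at 152.3 CPM, Ednrb at 33.4 CPM and Nepro at 0 CPM in mRFP-only IPCs. Tubb3 was thus the lowest day of one group and the highest of the other. On day 2, flagged values were Hes1 at 19.9 CPM in reporter-positive IPCs, and Kiz at 167.3 CPM and Trim33 at 182.4 CPM in mRFP-only IPCs.

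On day 3, flagged values were Cnr1 at 77 CPM and Rbfox1 at 3.56 CPM in reporter-positive IPCs, and Cdon and Adar, each at 8.47 CPM, in mRFP-only IPCs. On day 4, they were Maml1 at 0.406 CPM in reporter-positive IPCs, and Strn4 at 14 CPM, Maml1 at 17.5 CPM, Cnr1 at 60.4 CPM and Rbfox1 at 18.6 CPM in mRFP-only IPCs. No difference of the reporter effect between clusters or cell classes passed the interaction test in the edgeR fit with the day block.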

How the results depend on the processing

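No gene was called by edgeR in IPCs, in cluster 4, in cluster 6 or for any of the 3 differences under TMM factors, the minimum of 5 cells or, with 1 exception, with a day left out, and none in IPCs in the added fits without the shallowest mRFP-only plate or on clusters 4 and 6 only, which were run for IPCs only. The shares of tested genes called that changed were as follows, and the cause was not tested. DESeq2 called 0.2996% of genes in IPCs, 0.671% in cluster 4, 2.07% in cluster 6, 0.823% for the difference between clusters, 0.317% for that between IPCs and RGCs and 4.599% for that between IPCs and ENs. On simulated data with edgeR's dispersions and no day effect, DESeq2 also called many unchanged genes. limma-voom with quality weights called 2 genes in IPCs (0.0200%), 1 in cluster 4 (Sox11, 0.0102%), 3 in cluster 6 (Actb, Gm42418 and mRFP, 0.0309%) and 1 against RGCs (Neurod6, 0.00907%). Thinned counts gave 1 call in IPCs (mRFP, 0.00989%), 2 in cluster 4 (Neurod6 and Nrep, 0.0200%), 2 in cluster 6 (mRFP and Rnf138, 0.0197%), 2 between clusters (Mybbp1a and Spag5, 0.0185%), 1 against RGCs (Mllt11, 0.00899%) and 1 against ENs (Stil, 0.00913%). Without a day 3 mRFP-only plate, 5 genes were called between clusters (Ccnb1, Ccnf, Spag5, mRFP and mt-Co3, 0.0472%) and 1 against ENs (Bub1b, 0.00921%). With no filter on low counts 2 were called against ENs (Pbk and Spc25, 0.0129%), and with no replicate block 1 (Spc25, 0.00922%). In cluster 6 the share ranged from 0 to 0.0109% with a day left out, the call being mRFP without day 4. The genes called by these settings are named after their values were seen.

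The share of IPCs called G1 was 2.10 percentage points higher in the reporter-positive group on days with at least 10 cells a group, and ranged from -8.40 to 0.62 points with a day left out. Of 72 named genes, 49 kept one sign in every alternative, Btg2, Neurod1, Neurod6, Dcx, Nes, Cdkn1c and Rbl2 among them, and 23 changed sign in some. Log2 ratios of changed sign came from limma-voom with quality weights (Hes1 -0.38, Rbpj 0.33, Pax6 0.55, Top2a 0.0221, Pcna -0.15, Ckap5 -0.17, Kif23 0.0205, E2f5 0.45); the fit with no replicate block (Hes1 -0.88, Pcna -0.000559, Ednrb -0.76); the authors' normalized values (Hes1 -0.0210, Sox9 -0.0595, Cdkn1b -0.00156, Ednrb -0.0596). Others came from the minimum of 10 cells a group and day (Notch2 0.41, Rbpj 0.91, Sox2 0.88, Pax6 0.66, Neurog2 -0.13, Top2a 0.0448, Pcna -0.0945, Mib1 0.14, Cdc6 0.0829, Ckap5 -0.22, Kif23 0.24, E2f5 3.12); DESeq2 (Sox9 -0.0200, Ccnd2 -0.0184, Cnr1 -0.00723); leaving out the shallowest mRFP-only plate (Sox9 -0.0275). The rest came from clusters 4 and 6 only (Sox9 -0.58, Pcna -0.00820); leaving out a day 3 mRFP-only plate (Pcna -0.0147, Dner 1.49, Mfge8 0.26); thinned counts (Ednrb -0.0595). With each day left out in turn, genes that changed sign ranged over Ccnd2 -0.20 to 0.22, Cnr1 -1.83 to 4.55, Dll3 -1.44 to 0.66, Eomes -0.14 to 1.64, Hes1 -2.44 to 5.12, Hes6 -0.10 to 0.81, Notch2 -1.21 to 0.65, Pax6 -0.75 to 0.64, Pcna -0.32 to 0.33, Rbpj -0.72 to 0.25, Sox9 -0.36 to 0.56, Top2a -0.47 to 0.12. List medians ranged from -0.14 to 0.68 for intermediate progenitor genes, -0.69 to -0.17 for neuron genes, -0.56 to 0.40 for Notch ligands, 0.01 to 0.44 for proneural genes and -0.53 to 0.22 for G2 and mitosis genes.

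Sort day pairs the groups, and without the block no call was added or lost in IPCs. Same-day correlations did not all exceed those between days. The minimum of 10 cells left no fit for cluster 6 or for the difference between clusters, and leaving a day out was not possible where 2 days were fitted. Days 1 and 2 hold 5 to 11 cells a group, and lowly expressed genes such as Hes5, Hes1 and Maml1 were not detectable in some of their sums at that cell number.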

Other observations

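Heat shock and immediate early genes, which can respond to dissociation and sorting, gave 8 tested members of 14 with a median log2 ratio of 0.12 between reporter-positive and mRFP-only IPCs and 0 called, and the 13 mitochondrially encoded genes gave a median of 0.02 and 0 called. IPCs made up 19.2, 20, 12.8 and 19.9% of all reporter-positive cells sorted on days 1 to 4 and 29.2, 21.7, 15.6 and 18.3% of all mRFP-only cells, a mean difference of -3.21 ± 4.87 percentage points (SD, n = 4 days; exact sign-flip p = 0.25, adjusted 1). Thinned to equal depth, the median number of genes with a count was 2880.5 in reporter-positive and 2719 in mRFP-only IPCs.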
